A study of Mus musculus with 32 samples.

Results

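Of the 55487 genes in the count table, 94 were protein-coding genes whose symbol starts with Kcn, the prefix of the potassium channel family, and all of them were followed in skeletal muscle of mice that had lost Acvr1b, Tgfbr1 or both. Acvr1b (ALK4) and Tgfbr1 (ALK5) are type I receptors of the activin, myostatin and TGF-beta branches of signalling. The groups were double KO (both genes lost), Acvr1b KO, Tgfbr1 KO and control, with 4 mice each and 16 mice in all, and from every mouse the left soleus and the left gastrocnemius medialis were sequenced as polyA RNA, giving 8 groups of 4 libraries. Tamoxifen given to mice aged 6 weeks induced the knockout in myofibres, and tissue was collected after 3 months, as the labels' protocols state. The Cre driver of the myofibre-specific deletion, the sex of the mice and the genotype and treatment of the controls beyond their label are not given in the sources used here. Whole muscles were extracted, so the libraries also hold RNA of vessels, nerves and connective tissue, and fewer cells of a type cannot be told apart from less RNA per cell.

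Potassium channels let potassium leave or enter the cell along its gradient, and in muscle fibres they set the resting potential and end the action potential. Pore-forming subunits fall into voltage-gated (Kcna to Kcnd, Kcnq, Kcnh), calcium- or sodium-activated (Kcnm, Kcnn, Kcnt), inward rectifier (Kcnj) and tandem-pore (Kcnk) families. Modulatory subunits (Kcnf, Kcng, Kcns, Kcnv) form no current alone but join other voltage-gated subunits, and auxiliary subunits (Kcne, Kcnab, Kcnip, Kcnmb) tune the pore. Skeletal muscle is known for high levels of ATP-sensitive and strong inward rectifier channels, and for the small-conductance calcium-activated channel Kcnn3 in fibres that have lost their nerve supply.

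The libraries held between 16535498 and 54456977 counts. Acvr1b was lower in both groups that lost it, at 17.5 ± 4.1 CPM (counts scaled to 1000000 per library, mean with SD, n = 4) in gastrocnemius of double KO and 25.6 ± 1.6 CPM in Acvr1b KO against 107 ± 10 CPM in controls. Tgfbr1 counts over all exons were not clearly lower in its knockouts, which leaves the loss of single exons unchecked. In gastrocnemius Tgfbr1 was higher in double KO, at 47.8 ± 7.38 CPM, and 29.5 ± 3.32 CPM in Tgfbr1 KO, against 28.5 ± 6.74 CPM in controls. The soleus means were 24.9 ± 17.6 CPM in double KO and 14.5 ± 3.03 CPM in Tgfbr1 KO, against 15.7 ± 1.75 CPM in controls. As a check of the muscle labels, in controls 7 of 7 slow fibre markers were higher in soleus than in gastrocnemius, and 6 of 7 fast fibre markers were lower. Over all genes 20.5% were called higher and 19.9% lower. By mean correlation with their own group or by principal components, 4 libraries stood apart: soleus double KO 1 (0.929), gastrocnemius double KO 1 (0.982), soleus Acvr1b KO 1 (0.974) and gastrocnemius control 1 (0.98). The double KO libraries among these came from the same mouse, and gastrocnemius control 1 had the highest mitochondrial share, 25.99% of counts. The animal numbers of the double KO mice lie apart from all others, so that their cohort and their genotype cannot be told apart.

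Filtering on low counts left 54 of the 94 potassium channel genes in soleus and 44 in gastrocnemius: 40 were detected in both muscles, 14 only in soleus and 4 only in gastrocnemius (Kcna10, Kcns1, Kcnh7 and Kcnu1). A further 34 stayed low, with at most 18 counts in any library, and Kcnj1 and Kcns2 had no count in any of the 32 libraries. For a gene that passed the filter only through the group where it is high, the filter itself favoured a difference, so a call is not evidence of one. In gastrocnemius Kcna10, Kcns1, Kcne1l, Kcnc2 and Kcng2 passed only through the double KO libraries, so their values there are a description with no test. Of the classes, all 4 Kcnc genes were detected in both muscles, while the fast-inactivating Kcnd genes were detected in soleus (2 of 3) and not in gastrocnemius. Fractional counts from reads shared between gene copies were present in at least 16 libraries for 7 members, among them Kcnc1 (29 libraries) and Kcna5 (16), whose values are less certain for that reason.

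Per transcript length, Kcnj11 was the most abundant potassium channel transcript in both control muscles. It encodes the pore of the ATP-sensitive channel and reached 55.1 ± 1.61 TPM (transcripts scaled by length and to 1000000 per library, mean with SD, n = 4) in soleus and 62.1 ± 18.5 TPM in gastrocnemius. In soleus it was followed by the Shaker-type channel Kcna7 at 47.6 ± 6.96 TPM and the strong inward rectifier Kcnj12 at 20.7 ± 4.9 TPM, and the fast-gating channel Kcnc1 stood at 17.7 ± 3.57 TPM. Kcnj2, Kcnma1, Kcna5, Kcnj8 and Kcnn1, a small-conductance calcium-activated channel, were also among the first 10 in soleus, with means between 14.4 and 7.28 TPM. In gastrocnemius Kcnj12 came next to Kcnj11 at 43.0 ± 18 TPM, then Kcna7 at 36.9 ± 15.2 TPM, Kcnc4 at 21.7 ± 6.81 TPM, Kcnc1 at 19.2 ± 6.79 TPM and the modulatory subunit Kcng4 at 18.4 ± 7.82 TPM. Between the genes named next to each other in these orders the ranges of mean ± SD overlapped, except between Kcna7 and Kcnj12 in soleus. The 5 highest members made up 64.7% ± 1.13 of the summed TPM of all members in soleus controls and 64.6% ± 2.51 in gastrocnemius controls. The summed level ran from 222 to 284 TPM in soleus controls and from 157 to 368 TPM in gastrocnemius controls, where the lowest was the library with the high mitochondrial share.

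**Figure D1:**
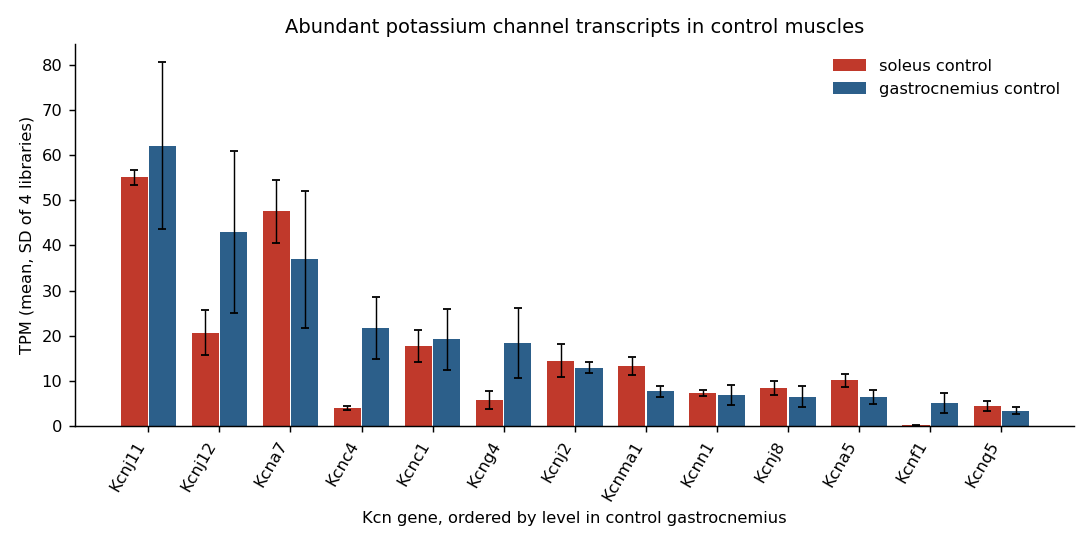
Mean level (bars, TPM) with SD over 4 libraries of abundant potassium channel genes in control soleus (left bar, red) and control gastrocnemius (right bar, blue), ordered by the gastrocnemius level. Kcnj11 stands highest in both muscles, and for Kcnc4, Kcng4, Kcnj12 and Kcnf1 the soleus bar lies far below the gastrocnemius bar, as with Kcnj12 at 20.7 TPM in soleus and 43.0 TPM in gastrocnemius.

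Control soleus differed from control gastrocnemius in 22 of the 57 members tested in the fit of both muscles, 12 higher (20.5% of all genes were) and 10 lower (19.9%) in soleus, and in 20 of these 22 the libraries of the muscles did not overlap. Of all 18733 genes tested, 40.4% passed the same threshold (adjusted p under 0.05), so the members' share of 38.6% lay near the background. Without the genes that passed the filter only through 1 muscle, Kcns3, Kcnt1 and Kcnh7 among the calls, 19 of 40 members were called (47.5%), beside 40.8% of all genes. No overlap between the muscles' libraries was seen in 22 of the 57, where 38.3% of all genes had none. The median log2 fold change was 0.48 over the members and 0.07 over all genes. Both medians include the genes that passed the filter only through 1 muscle, whose direction the filter favoured. They were not computed without these genes, so 0.48 is not evidence of a shift. The control libraries of both muscles come from the same 4 mice, and the SE and adjusted p given for this comparison ignore that pairing. With the mouse as a block, 26 members were called, where 8538 of all 18733 genes were. All 22 calls were kept, and Kcnip2, Kcnj14, Kcnn2 and Kcnq3 were gained. The fast-gating channel Kcnc4 was lower in soleus. It had 7.87, 8.62, 7.07 and 6.58 CPM in soleus controls, against 38.1, 46.8, 50.4 and 46.1 CPM in gastrocnemius controls. This was a log2 fold change of -2.59 (SE 0.198, adjusted p = 1.99e-11, edgeR quasi-likelihood test). Kcnc1 did not pass the test.

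Among the modulatory subunits, Kcnf1 showed the most negative log2 fold change of all members. It had 0.258, 0.15, 0.583 and 0.155 CPM in soleus controls, against 7.48, 16.1, 14.7 and 13.3 CPM in gastrocnemius controls. The muscles were far apart in every library, with a log2 fold change of -5.45 (SE 0.434, adjusted p = 4.34e-11). Kcng4, another modulatory subunit, was lower in soleus by -1.81 (SE 0.388, adjusted p = 0.000407) and Kcnv2 by -2.20 (SE 0.595, adjusted p = 0.00381). Kcng2 (log2 fold change 2.19) and Kcns3 (1.68) went the other way, so this class held 2 higher and 3 lower calls among 5 tested. Kcns3 passed the filter only through soleus, and Kcng2 averaged 0.176 CPM in gastrocnemius controls, near the detection limit.

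The calcium-activated channel Kcnn3 was higher in soleus, with 5.06, 4.69, 5.22 and 4.17 CPM in soleus controls, against 1.14, 0.941, 0.988 and 1.08 CPM in gastrocnemius controls. The log2 fold change was 2.20 (SE 0.572, adjusted p = 0.00283). Kcnma1, the pore of the large-conductance calcium-activated channel, was higher by 0.60 on the log2 scale (SE 0.157, adjusted p = 0.0029). The sodium-activated Kcnt1, at a log2 fold change of 1.25, passed the filter only through soleus. The ether-a-go-go related channel Kcnh2 had 1.86, 2.4, 2.76 and 2.98 CPM in soleus controls, against 0.426, 0.692, 0.659 and 0.645 CPM in gastrocnemius controls, a log2 fold change of 2.05 (SE 0.446, adjusted p = 0.000504). Kcna5 (0.48) and the tandem-pore channels Kcnk2 (1.08) and Kcnk6 (0.82) were also higher in soleus, all by adjusted p under 0.05. The Kcna5 call was lost without soleus control 3 or 4 or gastrocnemius control 2 or 3 (adjusted p up to 0.0869), and the Kcnk6 call without soleus control 3 or 4 or gastrocnemius control 1, 2 or 4 (up to 0.0635).

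The inward rectifiers were divided. Kcnj12 had 26.4, 33.7, 20.4 and 31.3 CPM in soleus controls, against 50.9, 65.1, 53.5 and 85.3 CPM in gastrocnemius controls, a log2 fold change of -1.19 (SE 0.207, adjusted p = 3.27e-05). Its relative Kcnj2 did not pass the test between muscles. Kcnj11 was lower in soleus by a log2 fold change of -0.32 (SE 0.076, adjusted p = 0.00123), and Kcnj15 was higher by 1.79 (SE 0.387, adjusted p = 0.000459). Abcc9, the sulfonylurea receptor that pairs with Kcnj11 in muscle, averaged 132 ± 17.1 CPM in soleus controls and 303 ± 28 CPM in gastrocnemius controls (log2 fold change -1.20, adjusted p = 9.93e-08). The auxiliary subunits were called once in each direction, Kcne1l higher in soleus (3.59, SE 0.687) and Kcnab1 lower (-2.56, SE 0.229). Kcne1l averaged 0.0381 CPM in gastrocnemius controls, so the size of its log2 fold change is set against values near the detection limit. Markers of other cells differed between the muscles as well: 6 of 8 smooth muscle and pericyte markers, 5 of 7 endothelial markers and 5 of 5 adipocyte markers were higher in soleus and none lower. Over all genes 20.5% were called higher and 19.9% lower. The part of these markers' cells in the differences of Kcnma1 and Kcna5, which vessels also express, was not tested.

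**Figure D2:**
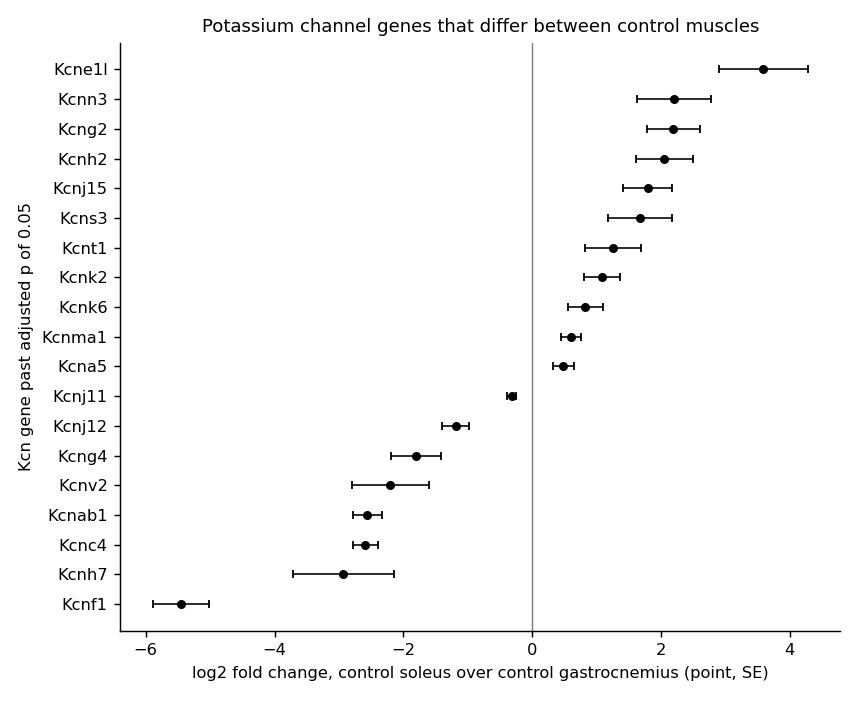
Log2 fold change (horizontal axis, point with SE) of control soleus over control gastrocnemius for potassium channel genes past an adjusted p of 0.05, 4 libraries a muscle. Values run from -5.45 for Kcnf1 to 3.59 for Kcne1l, with genes on both sides of 0. Kcne1l averaged 0.0381 CPM in gastrocnemius controls, near the detection limit.

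In gastrocnemius of double KO mice, 16 of the 44 tested members differed from controls, 7 higher (11.4% of all genes were) and 9 lower (9.54%). That share, 36.4%, compares with 20.9% of all 17550 genes tested in that comparison. Without the genes that passed the filter only through double KO, 13 of 39 members were called (33.3%), 4 higher and 9 lower, beside 20.8% of all genes. The median log2 fold change was -0.02 over the members and 0.00 over all genes. Both medians include the genes that passed the filter only through double KO and were not computed without them. The called channels moved in both directions. The risers were mostly genes near the detection limit in control gastrocnemius, and the fallers included several of the abundant channels. The double KO and control libraries did not overlap in 12 of the 16 called genes and in 13 of the 44 tested, where 21.3% of all genes showed no overlap. Kcna10 and Kcne1l, which passed the filter only through double KO, are among the 12 and the 13.

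Kcnn3 stood out among the risers. It had 19.3, 7.9, 6.76 and 6.1 CPM in double KO, against 1.14, 0.941, 0.988 and 1.08 CPM in controls. All 4 double KO libraries were above every control, with a log2 fold change of 3.27 (SE 0.349, adjusted p = 7.37e-06), and the value without double KO 1 was 2.73 (adjusted p = 4.14e-07). The single knockouts stayed in the control range or close to it, at 0.721, 1.45, 0.919 and 1.21 CPM in Acvr1b KO and 1.63, 0.8, 1.21 and 1.24 CPM in Tgfbr1 KO. Kcnn3 was also the only member called for a departure from additivity (double KO minus Acvr1b KO minus Tgfbr1 KO plus control, on the log2 scale), at 3.07 (SE 0.528, adjusted p = 0.00495), where 2.11% of all genes were called. All 4 gastrocnemius libraries of double KO also lay above the 4.17 to 5.22 CPM of control soleus.

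Kcna10, a Shaker-type channel, had 0.817, 0.499, 0.908 and 0.406 CPM in double KO, against 0.0799, 0.0553, 0.0732 and 0.0258 CPM in controls, which is 25, 17, 36 and 16 counts against 3, 2, 2 and 1 counts. The fitted log2 fold change was 3.45. Kcns1, a silent modulatory subunit, had 0.0981, 2.35, 1.39 and 1.14 CPM in double KO, against 0.0532, 0.138, 0.0366 and 0.155 CPM in controls. Here double KO 1 lay among the controls while the other 3 were far above them (fitted log2 fold change 3.62). Without double KO 3 or without double KO 4 the gene no longer passed the filter on low counts. The auxiliary subunit Kcne1l had 0.262, 0.617, 0.505 and 0.406 CPM in double KO, against 0, 0.0277, 0.0732 and 0.0516 CPM in controls, or 8, 21, 20 and 16 counts against 0, 1, 2 and 2. The fitted log2 fold change was 3.53, a size set against at most 2 counts in a control library. All of these passed the filter only through double KO, so their calls are not evidence of a difference.

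The remaining risers were a tandem-pore channel, a G protein-gated rectifier and a Kcnc channel. Kcnk5 had 3.37, 1.06, 1.69 and 0.711 CPM in double KO, against 0.213, 0.553, 0.549 and 0.568 CPM in controls, with no overlap and a log2 fold change of 1.87 (SE 0.465, adjusted p = 0.009). Without the libraries that stand apart its log2 fold change was 1.05 (adjusted p = 0.0628). Kcnj3 had 0.785, 1.59, 1.67 and 2.54 CPM in double KO, against 0.799, 0.498, 0.476 and 0.258 CPM in controls. Its double KO 1 value lay just under the highest control (log2 fold change 1.71, SE 0.36, adjusted p = 0.00291). Kcnc4, the most abundant of the risers, had 48.4, 79.2, 79.7 and 79.4 CPM in double KO, against 38.1, 46.8, 50.4 and 46.1 CPM in controls. The last 3 double KO libraries were nearly equal and above all controls, and double KO 1 was inside the control range (log2 fold change 0.67, SE 0.136, adjusted p = 0.00214, and 0.81 without that library).

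The promoters of the 4 risers Kcnn3, Kcna10, Kcns1 and Kcne1l are shown because these genes had the largest log2 fold changes. Each runs from 250 bases before to 50 bases after the start of the gene on its own strand (RefSeq, GRCm38.p6), 5′ to 3′, with matches to the E-box CANNTG, the letters that myogenic factors such as Myod1 and Myog bind, in capitals. The regions are chr3:89519914-89520213 on the plus strand for Kcnn3, chr3:107182893-107183192 on the plus strand for Kcna10, chr2:164171064-164171363 on the minus strand for Kcns1 and chrX:142306149-142306448 on the minus strand for Kcne1l.
Kcnn3: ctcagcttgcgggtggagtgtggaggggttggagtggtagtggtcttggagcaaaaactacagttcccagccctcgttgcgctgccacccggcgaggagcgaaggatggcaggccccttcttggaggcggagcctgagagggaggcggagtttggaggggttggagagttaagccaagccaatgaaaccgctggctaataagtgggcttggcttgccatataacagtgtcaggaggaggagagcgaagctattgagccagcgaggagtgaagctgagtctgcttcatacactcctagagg
Kcna10: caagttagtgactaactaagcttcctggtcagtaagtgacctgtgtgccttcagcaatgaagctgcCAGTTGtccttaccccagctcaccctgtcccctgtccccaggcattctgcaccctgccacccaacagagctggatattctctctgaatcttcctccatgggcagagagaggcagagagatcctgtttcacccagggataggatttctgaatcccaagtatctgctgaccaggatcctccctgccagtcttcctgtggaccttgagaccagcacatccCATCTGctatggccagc
Kcns1: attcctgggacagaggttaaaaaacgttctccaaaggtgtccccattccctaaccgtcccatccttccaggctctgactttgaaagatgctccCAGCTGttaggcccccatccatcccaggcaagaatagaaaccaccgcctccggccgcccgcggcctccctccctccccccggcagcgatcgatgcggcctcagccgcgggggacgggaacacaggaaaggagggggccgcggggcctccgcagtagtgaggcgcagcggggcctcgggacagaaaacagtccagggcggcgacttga
Kcne1l: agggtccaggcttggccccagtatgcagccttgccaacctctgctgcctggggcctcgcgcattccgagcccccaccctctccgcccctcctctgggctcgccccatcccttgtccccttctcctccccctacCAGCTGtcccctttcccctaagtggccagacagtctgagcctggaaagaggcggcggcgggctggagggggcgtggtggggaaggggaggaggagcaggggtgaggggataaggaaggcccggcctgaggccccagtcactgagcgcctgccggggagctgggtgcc
The Kcnn3 window held no E-box, Kcna10 held CAGTTG and CATCTG, and Kcns1 and Kcne1l each held a single CAGCTG. Over the called genes with a 300-base window in the table, CANNTG was found in 6 of 7 promoters of risers and 6 of 8 of fallers, against 72.3% of all 32851 promoters of that length. CAGCTG, one form of CANNTG, was found in 3 of 7 and 4 of 8, against 16.3% of all. The 7 risers include Kcna10, Kcns1 and Kcne1l, which passed the filter only through double KO. Kcns1 and Kcne1l are among the 3 risers with CAGCTG, so the motif counts are a description with no test. CAGAC, the short letters of SMAD binding, was found on either strand in 4 of 7 and 3 of 8 (49.6% of all), and TGTGGT, the core of RUNX binding, on either strand in 2 of 7 and 1 of 8 (16.8% of all). A match describes the letters of the window and is not a binding site.

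Of the fallers, Kcnma1 was the most abundant by CPM. It had 35.8, 52.3, 51.7 and 51.8 CPM in double KO, against 86.7, 67.7, 70.9 and 69.1 CPM in controls. Every double KO library lay under every control (log2 fold change -0.61, SE 0.128, adjusted p = 0.00283). Lrrc52, a gamma subunit of this channel, was lower too, at a mean of 2.16 CPM in double KO against 6.33 CPM in controls (log2 fold change -1.51, adjusted p = 0.00633), whereas another gamma subunit, Lrrc55, was higher, at a mean of 1.05 CPM in double KO against 0.104 CPM in controls (3.45, adjusted p = 0.00209). Lrrc55 was near the detection limit in controls. Whether it passed the filter only through double KO was not examined, so its call is not taken as evidence of a difference.

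The inward rectifiers that hold the resting potential were lower. Kcnj12 had 45.5, 42.4, 49.7 and 49.8 CPM in double KO, against 50.9, 65.1, 53.5 and 85.3 CPM in controls (log2 fold change -0.43, SE 0.122, adjusted p = 0.0201). Kcnj2 had 31.3, 22.5, 26.1 and 26.4 CPM in double KO, against 51.8, 36.3, 38.5 and 34.3 CPM in controls (log2 fold change -0.59, SE 0.189, adjusted p = 0.0357). Neither pair of groups overlapped, but the Kcnj2 call was lost in 7 of 14 alternatives, among them without double KO 2, 3 or 4 (adjusted p up to 0.0949) and without control 1 (adjusted p = 0.101) or control 3 (adjusted p = 0.0528). The Kcnj12 call was lost in 3 of 14, among them without double KO 2 (adjusted p = 0.0594) and without control 4, where the log2 fold change was -0.26 (adjusted p = 0.0644). Kcnj8, the pore of the vascular ATP-sensitive channel, had 2.03, 4.29, 5.68 and 7.06 CPM in double KO, against 7.37, 10.4, 8.49 and 9.66 CPM in controls (log2 fold change -0.89, SE 0.233, adjusted p = 0.0119, and 0.0668 when double KO and controls alone were fitted). The muscle pore Kcnj11 had 105, 107, 111 and 108 CPM in double KO, against 118, 128, 113 and 142 CPM in controls, and missed the threshold (log2 fold change -0.21, SE 0.0762, adjusted p = 0.0658).

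Of the 5 modulatory subunits tested in gastrocnemius, Kcnf1 and Kcng4 fell. Kcnf1 had 6.08, 4.38, 5.88 and 4.45 CPM in double KO, against 7.48, 16.1, 14.7 and 13.3 CPM in controls (log2 fold change -1.29, SE 0.226, adjusted p = 0.000687). Kcng4 had 21.8, 18.9, 28 and 24.2 CPM in double KO, against 29.5, 39.5, 31.4 and 50.4 CPM in controls (log2 fold change -0.68, SE 0.16, adjusted p = 0.00598). Both were without overlap, and both are genes that are lower in control soleus than in control gastrocnemius. Of the other genes called in both comparisons, Kcnj12, Kcnn3 and Kcne1l changed in the direction of control soleus. The Kcne1l call in double KO is not evidence of a difference, as the gene passed the filter only through double KO. Kcnc4, Kcnma1 and Kcna5 changed in the opposite direction. Both comparisons use the same control gastrocnemius libraries, so a high or low value there moves both the same way. A shared direction was not tested.

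Of the Shaker-type channels, Kcna1 and Kcna5 fell. Kcna1 had 0.36, 0.294, 0.303 and 0.305 CPM in double KO, against 0.772, 1.19, 1.24 and 0.516 CPM in controls (log2 fold change -1.53, SE 0.42, adjusted p = 0.0163). Schwann cell markers, none of which was called, summed to 35.7 to 42.1 CPM in double KO against 42.4 to 68.6 CPM in controls, and their part in the Kcna1 difference was not tested. Kcna5, an ultrarapid rectifier of heart and vessels, had 6.96, 5.84, 7.17 and 8.56 CPM in double KO, against 10.9, 9.38, 9.62 and 11.4 CPM in controls (log2 fold change -0.52, SE 0.143, adjusted p = 0.0166, and 0.0543 without double KO 2). The muscle channel Kcna7 had 6.15, 26.2, 32.6 and 28.5 CPM in double KO, against 28.9, 46.3, 42.8 and 53.3 CPM in controls. It missed the threshold with all libraries (log2 fold change -0.86, SE 0.308, adjusted p = 0.0578) and passed without double KO 1 (-0.55, adjusted p = 0.0147) and with the replicate number as a block (-0.93, adjusted p = 0.0284). The auxiliary subunit Kcne4 had 1.44, 0.852, 0.53 and 0.991 CPM in double KO, against 1.62, 1.94, 3.62 and 1.06 CPM in controls, with overlapping groups (log2 fold change -1.09, SE 0.335, adjusted p = 0.029). That call was lost in 5 of 14 alternatives, among them without double KO 2, 3 or 4 (adjusted p up to 0.095) and without control 3 (-0.69, adjusted p = 0.111).

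**Figure D3:**
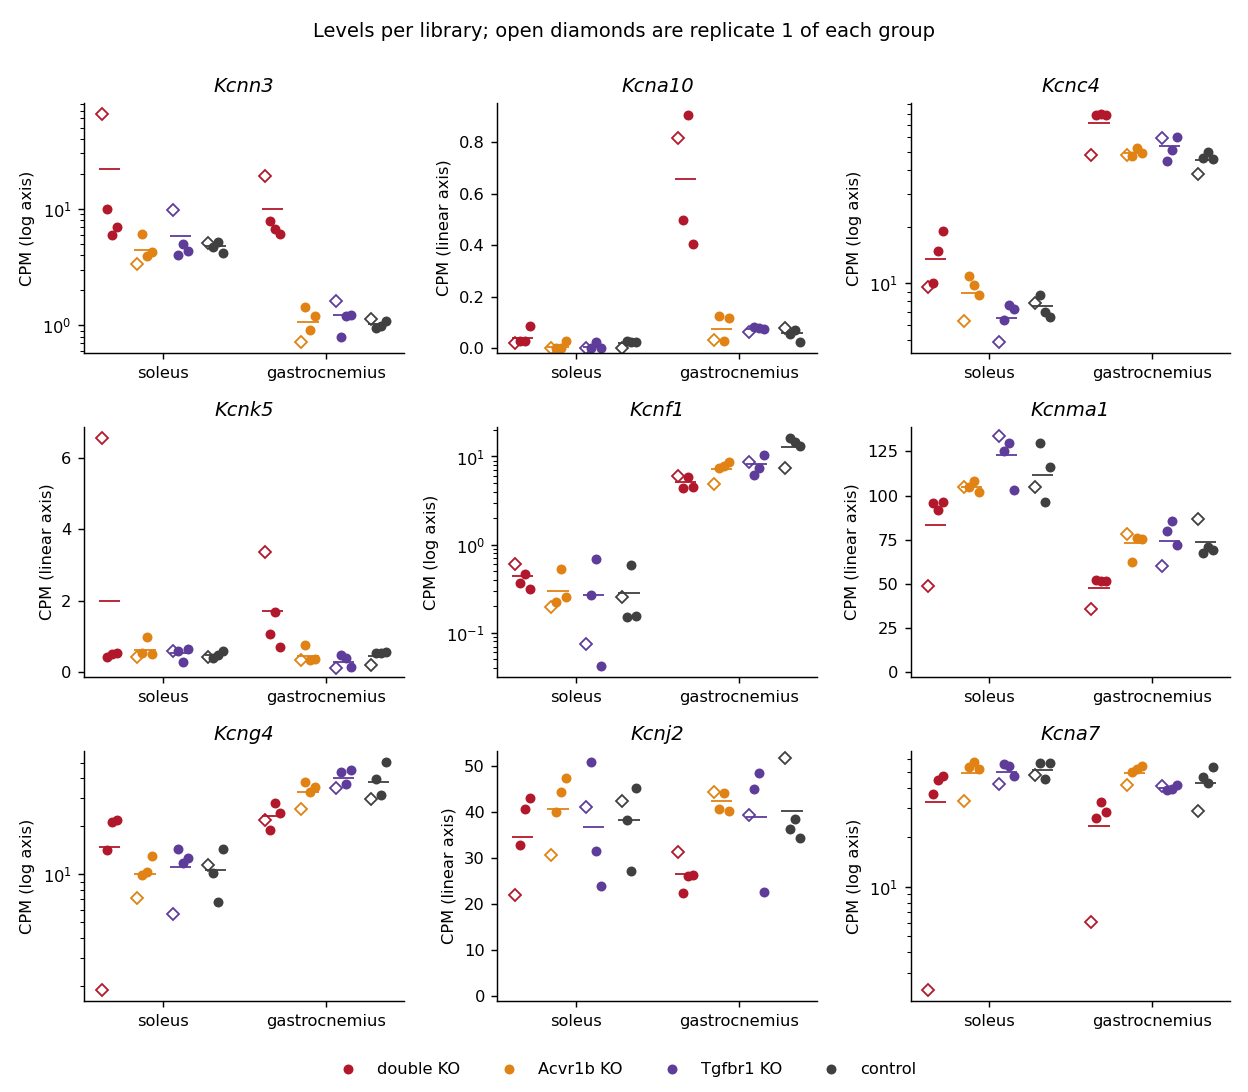
Level of 9 potassium channel genes in each of the 32 libraries (points, CPM; the axis label says whether the axis is linear or log), soleus on the left and gastrocnemius on the right of each panel, genotypes from left to right double KO, Acvr1b KO, Tgfbr1 KO and control, with the mean as a line and replicate 1 as an open diamond. Kcnn3 and Kcna10 of gastrocnemius double KO stand above all other gastrocnemius libraries, and double KO 1 departs from its group for Kcnn3, Kcnk5, Kcng4 and Kcna7 in soleus.

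Some called genes are neighbours on the chromosome. Kcna10 and Kcnc4 lie 0.243 Mb apart on chromosome 3 and were both called higher. Kcna10 passed the filter only through double KO, so its call in this pair is not evidence of a difference. Kcna5 and Kcna1 lie 0.105 Mb apart on chromosome 6 and both fell. Kcna6, which lies next to Kcna1 on chromosome 6, did not pass the test (log2 fold change -0.06, SE 0.304, adjusted p = 0.916). The pairs Kcna10 with Kcnc4 and Kcna5 with Kcna1 were 2 of the 18 pairs of adjacent members within 1 Mb. Abundant channels without a call in this comparison included Kcnn1 (log2 fold change 0.09, SE 0.103) and Kcnc1 (-0.57, SE 0.332), the last with a double KO 1 value of 14.8 CPM against 81.5 to 85.5 CPM in the other double KO libraries.

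Other genes of membrane excitability that are not Kcn genes gave 5 higher and 6 lower calls among 24 tested in gastrocnemius double KO, with a median log2 fold change of 0.00. Over all genes in that comparison 11.4% were called higher and 9.54% lower, which is also the background of the denervation genes below. Besides Lrrc55 and Lrrc52, the calls included Atp1b1, a beta subunit of the sodium pump (log2 fold change -0.88, SE 0.262, adjusted p = 0.0249). Genes of this list, Lrrc55 among them, were not examined for passing the filter only through double KO. Genes known to respond to denervation gave 11 higher and 0 lower calls among 14 tested, with a median log2 fold change of 1.18 beside 0.00 over all genes. Without double KO 1 they gave 8 higher and 1 lower, with a median of 0.68 beside -0.01 over all genes, of which 3705 of 17786 were called. The adult acetylcholine receptor subunit Chrne was higher by 2.59 (adjusted p = 5.27e-10), and by 2.56 (adjusted p = 3.32e-09) without double KO 1. Gadd45a was higher by 2.68 (adjusted p = 0.000245), and by 1.77 (adjusted p = 3.4e-06) without it. Myog was called with all libraries (1.80, adjusted p = 0.0202) and not without double KO 1 (0.63, adjusted p = 0.0813). Myog had 14.4 CPM in double KO 1 and 2.3 to 2.54 CPM in the other double KO libraries, against 1.09 to 2.38 CPM in controls.

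Markers of fibre types and of other cells also differed in gastrocnemius double KO, some lower and some higher. Over all genes 11.4% were called higher and 9.54% lower in that comparison. Endothelial markers were lower in 4 of 7 and higher in none, with a summed level of 249 to 276 CPM in double KO against 314 to 355 CPM in controls. Smooth muscle and pericyte markers were lower in 2 of 8, with sums of 227 to 319 CPM in double KO against 301 to 419 CPM in controls. Slow fibre markers were lower in 6 of 7, at 820 to 1360 CPM in double KO against 1770 to 2710 CPM in controls, and fast fibre markers were lower in 3 of 7, at 114000 to 133000 CPM in double KO against 145000 to 181000 CPM in controls. The part of these shifts in the falls of Kcnj8, Kcna5, Kcnma1 and Kcne4, genes that vessels also express, was not tested. Of the 6 neuron markers none passed the filter on low counts, and their summed level was at most 0.303 CPM in gastrocnemius double KO and 0.194 CPM in controls, with Elavl4 at 0 in both. Macrophage markers were higher in 4 of 6, at 48.6 to 81.7 CPM in double KO against 36.1 to 42.2 CPM in controls, fibroblast markers were higher in 2 of 6, and adipocyte markers were lower in 2 of 5. Without double KO 1 macrophage markers were higher in 3 of 6, and fast fibre markers were lower in 4 of 7 and higher in 1.

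Neither single knockout changed a member in gastrocnemius past the threshold. For Acvr1b KO 0 of 44 were called (0.0285% of all genes were), and DESeq2 also gave 0 calls. Without adjustment 5 lay under 0.05 (4.45% of all genes did), among them Kcnf1, Kcnj15, Kcnq1 and Kcnk1. For Tgfbr1 KO 0 of 44 were called (0.171% of all genes were), and DESeq2 again gave 0 calls. Without adjustment 3 lay under 0.05 (6.06% of all genes did), namely Kcnf1, Kcna2 and Kcnip3. These genes were named after their values were seen. Kcnf1 had the smallest unadjusted p in both. It had 4.83, 7.4, 7.73 and 8.59 CPM in Acvr1b KO (log2 fold change -0.85, SE 0.222, adjusted p = 0.578) and 8.68, 6.13, 7.46 and 10.4 CPM in Tgfbr1 KO (-0.66, SE 0.223, adjusted p = 0.571), and both groups overlapped the controls through control 1.

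**Figure D4:**
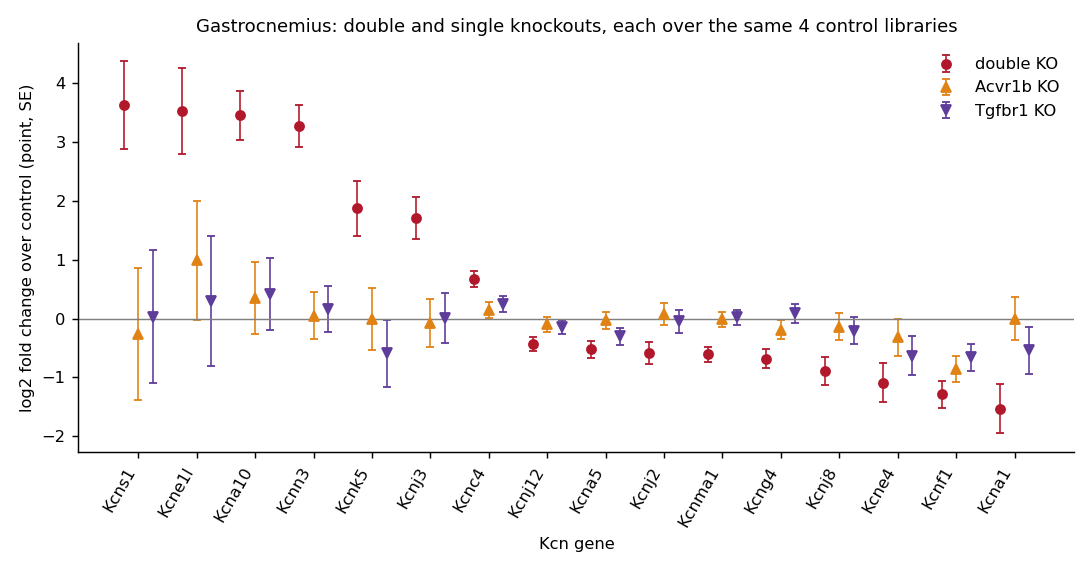
Log2 fold change over control in gastrocnemius (vertical axis, point with SE) for the 16 genes called in double KO, shown for double KO (circles), Acvr1b KO (upward triangles) and Tgfbr1 KO (downward triangles), all against the same 4 control libraries. The single knockouts are near 0 for most genes, and Kcnf1 is the gene where both lie below 0 by more than 2 SE, with values of -0.85 and -0.66.

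Set against the single knockouts, gastrocnemius of double KO mice was compared through the same 4 double KO libraries that entered the comparison with controls. Against Acvr1b KO, 17 of 44 members were called, 7 higher and 10 lower (16.3% of all genes, 9.25% higher and 7.03% lower). Against Tgfbr1 KO, 8 of 44 were called, 6 higher and 2 lower (12.8% of all genes, 7.42% higher and 5.4% lower). Kcnn3 was higher against Acvr1b KO by 3.23 (SE 0.349, adjusted p = 1.11e-05) and against Tgfbr1 KO by 3.12 (SE 0.353, adjusted p = 2.89e-05). Without the genes that passed the filter only through double KO, 14 of 39 members were called against Acvr1b KO (35.9%, beside 16.1% of all genes) and 5 of 39 against Tgfbr1 KO (12.8%, beside 12.7% of all genes). Besides Kcnn3, Kcnk5 and Kcnj3 were called higher in both, and Kcng4 and Kcnma1 lower in both. The Kcng4 call against Acvr1b KO was lost in 8 of 14 alternatives, among them without Acvr1b KO 2, 3 or 4 and without double KO 1, 2 or 4 (adjusted p up to 0.128), and the Kcnj8 call against Acvr1b KO in 6 of 14 (up to 0.103). Calls against Acvr1b KO alone included Kcna7, with no overlap between 6.15 to 32.6 CPM in double KO and 41.3 to 54.3 CPM in Acvr1b KO (log2 fold change -1.07, SE 0.309, adjusted p = 0.0255), Kcnq1 (-1.23, SE 0.333) and Kcnj15 (-1.51, SE 0.415). The Kcna7 call was lost without Acvr1b KO 2, 3 or 4 (adjusted p up to 0.0583), and the Kcnq1 and Kcnj15 calls without Acvr1b KO 1 (adjusted p = 0.0725 and 0.0873). Without Acvr1b KO 2 the count against Acvr1b KO was 11 (2287 of all 17842 genes), and without Acvr1b KO 3 it was also 11 (2055 of 17725). Without the libraries that stand apart, the count against Tgfbr1 KO was 15 of 45 members, where 2903 of all 17706 genes were called. The count for the departure from additivity was 6 of 45 members without them (788 of all 17706 genes) and 3 without double KO 1 (532 of 17786). It was 2 without control 1 (541 of 17731) or without Tgfbr1 KO 4 (387 of 17713), and 1 with all libraries (370 of 17550). In that test 11 members lay under 0.05 without adjustment (14.9% of all genes did). The 3 calls of DESeq2, beside 732 among all 17550 genes, were Kcnn3, Kcnk5 and Kcnma1.

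In soleus no member of 54 was called for double KO against control by edgeR's quasi-likelihood test, where 0.716% of all 18151 genes were, and 14 lay under 0.05 without adjustment (12.2% of all genes did). The 2 calls of DESeq2, beside 407 among all genes, were Kcnn3 and Kcnc4. Kcnc4 had 9.61, 10.1, 14.9 and 19 CPM in double KO, against 7.87, 8.62, 7.07 and 6.58 CPM in controls, with every double KO library above every control (log2 fold change 0.84, SE 0.214, adjusted p = 0.0942). Without soleus double KO 1 it passed (0.95, adjusted p = 0.0309). Kcnn3 had 65.0, 9.89, 5.93 and 6.94 CPM in double KO, against 5.06, 4.69, 5.22 and 4.17 CPM in controls. Again no libraries overlapped, but the log2 fold change of 2.24 (SE 0.626, adjusted p = 0.125) rested on double KO 1 and was 0.66 (adjusted p = 0.321) without it. For Acvr1b KO against control in soleus 0 of 54 members were called (0.022% of all genes were), and Kcnq1 and Kcnt1 were the 2 under an unadjusted 0.05 (1.93% of all genes). For Tgfbr1 KO against control 0 were called (0.0551% of all genes were) and 0 lay under an unadjusted 0.05 (2.24% of all genes), with 0 calls by DESeq2 in both. Double KO against Acvr1b KO gave 0 calls (0.127% of all genes), 13 members under an unadjusted 0.05 (11.2%) and 2 calls by DESeq2, Kcnn3 and Kcnq1 (150 among all genes). Double KO against Tgfbr1 KO gave 0 calls (0.0496%), 8 members under an unadjusted 0.05 (9.11%) and 1 call by DESeq2, Kcnc4 (84 among all genes). The departure from additivity in soleus gave 0 calls among members and among all 18151 genes, with 5 members under an unadjusted 0.05 (among them Kcnq1, Kcnc4, Kcnab1 and Kcnn3; 3.38% of all genes) and 0 calls by DESeq2. In soleus double KO the other excitability genes gave 0 calls among 25 tested (median log2 fold change 0.09) and the denervation genes 0 among 15 (median 0.40), where the median of all genes was 0.04. Without double KO 1 the excitability genes gave 3 higher calls (median 0.05) and the denervation genes 2 lower ones (median -0.06). Beside these, 309 of all 18385 genes were called, with a median of 0.00.

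The soleus library of double KO 1 differed from its group in many channels at once. It held 65.0 CPM of Kcnn3, 6.55 CPM of Kcnk5 and 17.3 CPM of Kcne4, where the other double KO soleus libraries held 5.93 to 9.89, 0.423 to 0.541 and 1.37 to 2.25 CPM. It was low in Kcna7 (2.37 CPM against 36.6 to 47.2), Kcnc1 (4.62 against 73.4 to 81.9), Kcng4 (1.89 against 14.2 to 22) and Kcnma1 (48.9 against 91.8 to 96.5). Other soleus differences from control also turned on 1 double KO library: the log2 fold change of Kcne4 was 0.88 with all libraries and -0.85 without double KO 1, that of Kcna1 was 0.12 and -0.82 without double KO 2, and that of Kcnj8 was 0.12 and -0.09 without double KO 3. The gastrocnemius of double KO mouse 1 deviated the same way for Kcnn3, Kcnk5, Kcna7, Kcnc1 and Kcnma1. Its soleus also held 803 CPM of Gadd45a and 46.5 CPM of Myog, where the other double KO soleus libraries held at most 12 and 2.45 CPM.

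**Figure D5:**
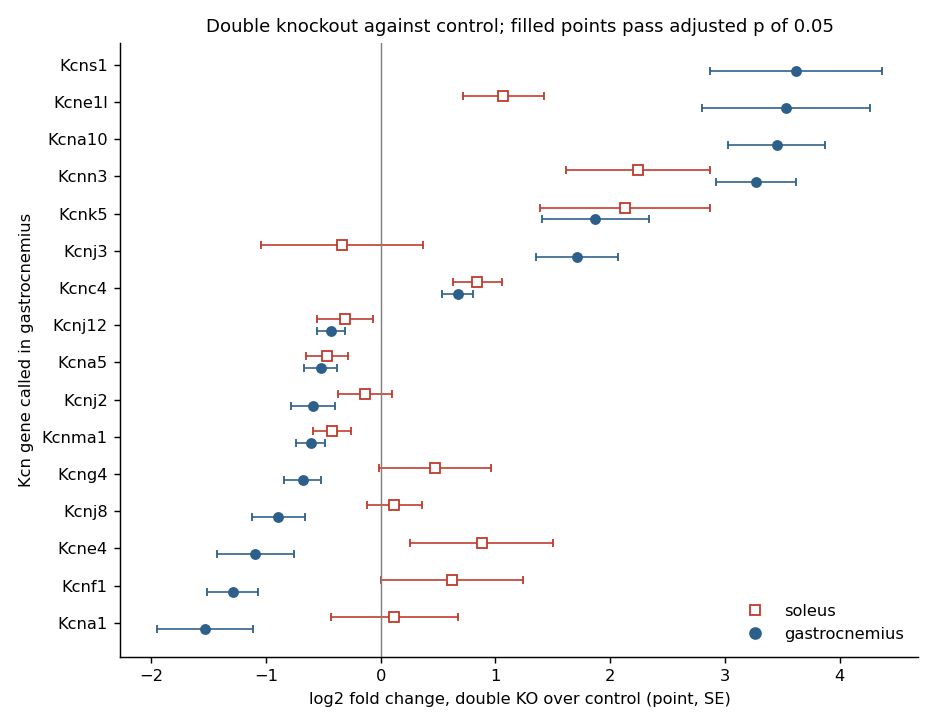
Log2 fold change of double KO over control (horizontal axis, point with SE) in soleus (red squares) and gastrocnemius (blue circles) for the 16 genes called in gastrocnemius, with filled points past an adjusted p of 0.05; Kcns1 and Kcna10 have no soleus point because they did not pass the filter there. No soleus point passes, Kcnc4 lies at 0.84 in soleus and 0.67 in gastrocnemius, and Kcng4 and Kcnf1 lie above 0 in soleus, at 0.47 and 0.62, and below 0 in gastrocnemius, at -0.68 and -1.29. Kcns1, Kcne1l and Kcna10 passed the filter in gastrocnemius only through double KO.

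Whether the double KO effect differed between the muscles was tested directly as soleus minus gastrocnemius. With all libraries 0 of 57 members were called by edgeR (0.726% of all genes were), 12 lay under 0.05 without adjustment (8.82% of all genes did), and DESeq2 gave 0 calls. The soleus and gastrocnemius of a mouse form a pair, and with the mouse as a block 2 members and 260 of all 18733 genes were called. The members were Kcnn3 at -1.64 (adjusted p = 0.0131) and Kcnj8 at 1.06 (adjusted p = 0.0033), against -1.05 (adjusted p = 0.746) and 1.02 (adjusted p = 0.279) without the block. Without double KO mouse 1 the unpaired test called Kcnn3 (-2.07, adjusted p = 0.00206), Kcnj8 (1.01, adjusted p = 0.0179) and Kcng4, as it did without the soleus library of that mouse alone, where the Kcnn3 difference was -2.60. Kcnf1 had the smallest unadjusted p with all libraries, at a difference of 1.92 (SE 0.61, adjusted p = 0.19). For Kcnc4 the difference was 0.17 (SE 0.265, adjusted p = 0.922), which does not show that the effects were alike.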

How the data were processed

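PolyA RNA of soleus and gastrocnemius medialis from 16 mice gave 32 libraries. The authors deposited 1 table of estimated counts per gene, made with featureCounts 2.0.1 on Ensembl release 102, with the reverse-strand setting 2 and multi-mapped reads shared as fractions, per the file headers. The submitters' processing notes name the build GRCm38.p6 and the tools cutadapt, HISAT2, FastQC 0.11.9 and DESeq2, without their settings. Counting with strand separates the antisense genes, 5 of which have a Kcn symbol and were left out. Symbols came from GENCODE M21 (55227 of 55487 identifiers matched).

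Counts were rounded and tested with edgeR 4.0.16 (R 4.3.3): filterByExpr, TMM scaling, robust quasi-likelihood F-tests and Benjamini-Hochberg adjustment over all genes tested, at a threshold of 0.05. All 16 libraries of a muscle entered a fit, and all 32 entered the fit between muscles. An SE is the size of the log2 fold change divided by the square root of F. CPM use TMM-scaled totals, and TPM were computed from counts and the gene lengths in the table. Replicates are separate mice, and library totals set the precision. Alternatives were DESeq2 1.42.0, other size factors, no filter, the compared groups alone, each library left out, and replicate blocks. Those without the libraries that stand apart, without double KO mouse 1, or without genes that pass the filter only through 1 group or muscle, were chosen after seeing the data. Replicate numbers across genotypes do not pair the mice (correlations of deviations across genes -0.4 to 0.53). Soleus and gastrocnemius of a mouse pair by the labels (0.03 to 0.69).

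The potassium channel genes, the gene lists and the tests were chosen with earlier results of these data known. Named are always Kcnj2, Kcnj11, Kcnj12, Kcnn3, Kcnma1 and Kcna7, the 10 members with the highest mean TPM in each control muscle, and the called members with the largest changes. Some genes that this rule names are not reported here. Promoters of 300 bases came from RefSeq (GRCm38.p6). The Dixon check for single libraries covered 22 members.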

Additional observations from a re-analysis of the deposited data

Results flagged for a closer look

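In groups of 4 libraries, 19 values of 7 potassium channel genes stood far from the other 3 of their group by Dixon's gap test, out of 159 groups of 22 genes examined. Chance flags about 1 in 20 groups. Of the 19, 10 belonged to double KO 1.

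In soleus, double KO 1 was highest for Kcnn3 at 65.0 CPM (others 5.93 to 9.89), Kcnk5 at 6.55 CPM (0.423 to 0.541) and Kcne4 at 17.3 CPM (1.37 to 2.25). It was lowest for Kcnc1 at 4.62 CPM (73.4 to 81.9) and Kcnma1 at 48.9 CPM (91.8 to 96.5). In gastrocnemius, double KO 1 was highest for Kcnn3 at 19.3 CPM (6.1 to 7.9) and Kcna1 at 0.36 CPM (0.294 to 0.305), a narrow group. It was lowest for Kcnc1 at 14.8 CPM (81.5 to 85.5), Kcnc4 at 48.4 CPM (79.2 to 79.7) and Kcnma1 at 35.8 CPM (51.7 to 52.3).

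In the other soleus libraries, Kcna1 was high in double KO 2 at 2.68 CPM (0.434 to 0.69) and in Acvr1b KO 3 at 2.4 CPM (0.682 to 0.96). Schwann cell markers summed to 536 CPM in double KO 2 (others 67 to 77.8) and 702 CPM in Acvr1b KO 3 (others 110 to 149). Kcne4 was high in Acvr1b KO 3 at 3.79 CPM (2.23 to 2.34). In Tgfbr1 KO 3, Kcnc1 was high at 104 CPM (72.7 to 73.5) and Kcnk5 low at 0.292 CPM (0.596 to 0.656). In the other gastrocnemius libraries, Acvr1b KO 2 was high for Kcna1 at 1.61 CPM (0.594 to 0.768) and Kcnk5 at 0.774 CPM (0.345 to 0.384), and low for Kcnma1 at 62.7 CPM (75.7 to 78.2). Its Schwann cell markers summed to 122 CPM (others 45.7 to 51.7), and their part in the Kcna1 values was not tested. Kcnk5 was low in control 1 at 0.213 CPM (0.549 to 0.568).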

How the results depend on the processing

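Of 1105 values of single genes under the alternatives, 1006 kept their direction and side of the threshold, 74 kept their direction and lost the call, 20 gained one and 5 changed sign. The sign changes were in soleus, double KO against control, none of them called: with each library left out Kcna1 ran from -0.82 to 0.51, Kcne4 from -0.85 to 1.20 and Kcnj8 from -0.09 to 0.35, and Kcne4 was -0.85 without the libraries that stand apart. Kcna1 was also -0.09 without control 4. In gastrocnemius, double KO against control gave 12 to 22 calls with each library left out, beside 2644 to 3874 among all genes. In every alternative that tested them, 10 of its 16 genes were called. These 10 include Kcna10, Kcne1l and Kcns1, which passed the filter only through double KO, so their calls are not evidence of a difference. Kcns1 had a value in only 11 alternatives, where Kcna10 and Kcne1l had one in 14. Double KO against Acvr1b KO gave 11 to 17 calls (2055 to 2943 among all genes) and against Tgfbr1 KO 7 to 11 (1526 to 2090). Against Tgfbr1 KO there were 15 without the libraries that stand apart (2903 of all 17706 genes). There were 5 without the genes that passed the filter only through double KO (2173 of all 17150). The departure from additivity gave 1 to 3 calls with each library left out (231 to 541 among all genes). It gave 3 by DESeq2 (732 among all genes) and 6 without the libraries that stand apart (788), and Kcnn3 was called throughout. In soleus, double KO against control gave 0 to 1 calls with each library left out (64 to 309 among all genes). It gave 2 by DESeq2 (407) and 2 without the libraries that stand apart (498). Double KO against Acvr1b KO in soleus gave 2 calls by DESeq2 (150 among all genes). Against Tgfbr1 KO there was 1 by DESeq2 (84) and 1 without the libraries that stand apart (44). The difference of the double KO effect between muscles gave 0 to 3 calls with each library left out, 4 without the libraries that stand apart and 3 without double KO mouse 1. The calls among all genes are not set beside these counts, which are no result about the members. With the mouse as replicate block that difference gave 2 calls (260 of all 18733 genes). Control soleus against control gastrocnemius gave 26 in place of 22 (8538 of all genes in place of 7571). Within a muscle, the replicate block across genotypes rests on numbers alone. It gave 17 calls for double KO against control in gastrocnemius (3641 of all 17550 genes). The causes were not tested. Changes in the 34 low genes, with at most 18 counts in a library, were not detectable at this depth.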
